A study of Mus musculus with 32 samples.

Results

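The genes described here are 7 genes of MHC class II antigen presentation in the mouse brain, H2-Aa, H2-Ab1, H2-Eb1, Cd74, H2-DMa, H2-DMb1 and Ciita, chosen by name, with no threshold on their values. All 7 were found among the 55341 genes of the 32 count tables. A barcode, the tag given to the RNA of 1 captured cell, was counted as carrying a class II gene when it held at least 1 unique molecular identifier (UMI, 1 per captured transcript) of it. Of 13917 barcodes, 1801 (12.9%) carried at least 1 of the 7 genes, with 3629 UMIs in all, and 12116 carried none.

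Female mice of 15 months, 16 in number, each gave 1 cortical and 1 hippocampal library after bead isolation of microglia with CD11b and of astrocytes with ACSA-2. The vehicle groups held 5 WT and 4 Tg2576 mice and the PMX205 groups 3 WT and 4 Tg2576 mice, where PMX205, an antagonist of the complement receptor C5aR1, was given in the drinking water for 12 weeks and vehicle was plain water. Tg2576 mice overexpress human APP with the Swedish mutation from a prion promoter, in all cells in which that promoter is active, on a B6/SJL background, and the WT mice were littermates. The strain labels differ from this: they name an Arctic line for APP mice, give 5 mice a constitutive knockout of C5ar1 and another 5 a GFAP-driven C5a transgene, and for 2 mice (WT-vehicle 4 and Tg2576-vehicle 3) contradict the genotype label. Genotype and treatment labels therefore set the groups here.

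MHC class II molecules are pairs of an alpha and a beta chain that carry peptides from endocytosed proteins to the cell surface, where CD4 T cells read them. H2-Aa and H2-Ab1 encode the alpha and beta chains of I-A, and H2-Eb1 encodes the beta chain of I-E. Cd74, the invariant chain, holds the new pair and guides it to the endosome, H2-DMa and H2-DMb1 form the DM editor that exchanges the invariant chain fragment for a peptide, and Ciita is the transactivator that switches the family on. Dendritic cells, B cells and macrophages carry the molecules constitutively, whereas microglia are known for low levels that rise on activation.

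5 of the 7 genes lie in the H2 complex on chromosome 17 (mm10, GENCODE M21). H2-Aa spans chr17:34282744-34287823 on the minus strand, and H2-Ab1 (chr17:34257689-34269419), H2-Eb1 (chr17:34305867-34316674), H2-DMa (chr17:34119541-34139101) and H2-DMb1 (chr17:34153072-34160230) lie on the plus strand. Ciita lies on the plus strand at chr16:10480059-10528418, and Cd74 lies outside the complex as well. The annotation places an antisense RNA, Gm20513, over H2-Eb1, the protein-coding Brd2 and 3 other genes over H2-DMa, and Dexi over Ciita. The use of strand in the counting is not given in the sources used here, so reads of these genes and of their antisense neighbors cannot be told apart.

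Class II promoters are known for a conserved set of elements, among them the Y box, which reads GATTGG on one strand, and an X2 box related to TGACGTCA. The sequences just before H2-Aa and H2-Eb1 are shown because these are the classical chains for which a window was held, and both reached high counts in the barcodes described below. Each is the 150 bases before the gene's start (RefSeq, GRCm38.p6), 5′ to 3′ on the strand of the gene, with GATTGG or its reverse complement and the X2 letters searched (TGACGTCA and TGATGATG, both strands) in capitals:
H2-Aa, chr17:34287824-34287973, minus strand: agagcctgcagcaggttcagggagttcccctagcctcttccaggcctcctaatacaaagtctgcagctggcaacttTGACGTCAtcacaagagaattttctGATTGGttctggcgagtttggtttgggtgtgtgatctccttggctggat
H2-Eb1, chr17:34305717-34305866, plus strand: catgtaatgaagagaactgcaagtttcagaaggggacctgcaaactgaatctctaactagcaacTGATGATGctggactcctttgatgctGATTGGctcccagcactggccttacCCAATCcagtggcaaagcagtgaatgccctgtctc

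In H2-Aa the Y box letters lie at positions -49 to -44 from the start and TGACGTCA at -74 to -67. In H2-Eb1 the Y box letters lie at -60 to -55, with their reverse complement at -35 to -30, and TGATGATG at -86 to -79. H2-DMb1 had the same pair, GATTGG at -62 to -57 and TGATGATG at -89 to -82, and 1 of the 2 windows of H2-DMa had GATTGG at -199 to -194. For both DM genes these positions count from RefSeq starts that lie inside the GENCODE spans given above. Their windows were chr17:34152941-34153240 (H2-DMb1) and chr17:34125268-34125567 (H2-DMa). Of 32817 promoter windows of 300 bases in the RefSeq table, 5278 (16.1%) held GATTGG, 588 (1.79%) TGACGTCA, 473 (1.44%) TGATGATG, and 151 (0.46%) GATTGG together with either of the X2 letters. No window was held for H2-Ab1, Cd74 and Ciita. A match describes letters and is not a measured binding site.

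Library depth ranged from 37205 to 1072049 UMIs over 73 to 1586 barcodes. Limits of at least 500 UMIs, at least 300 genes and at most 5% mitochondrial UMIs left 5965 cells, and removal of 340 likely doublets left 5625 (median of 898 UMIs). Clusters of these cells, made without the class II genes, gave 1736 microglia-like cells (called microglia here), in which 12 of the 13 microglial markers were found in 51.4% to 97.7% of cells and the other, P2ry12, in 0.346%. RNA outside its own cell type was visible, since Csf1r, a microglial gene, was found in 36.1% of astrocytes against 97.7% of microglia. In 4 mice (WT-vehicle 5, Tg2576-vehicle 4, Tg2576-PMX205 2 and Tg2576-PMX205 3) between 23.8% and 62.5% of barcodes had a near twin that differed at the first base alone, against at most 2.06% in the other mice, and 289 barcode strings occurred in more than 1 library, in 1332 barcodes in all, of which 194 carried a class II gene.

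Class II transcripts were sparse in most carrying barcodes and concentrated in a few. Of the 1801 carrying barcodes 1231 (68.4%) held a single class II UMI, whereas the 79 barcodes (4.39%) with at least 5, called high barcodes here, held 1188 UMIs (32.7% of the total), and the 10 highest held 647 (17.8%). The classical chains were the most concentrated, with 57.1% of H2-Eb1, 50.8% of H2-Aa and 37.1% of H2-Ab1 UMIs in the high barcodes. Cd74 also had 37.1% there, but H2-DMa had 15.3% and H2-DMb1 10.2%.

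Among the classical chains, H2-Aa was found in 201 barcodes (435 UMIs, up to 40 in 1 barcode), H2-Ab1 in 387 (703 UMIs, up to 34) and H2-Eb1 in 251 (617 UMIs, up to 76). The invariant chain gene Cd74 was found in 259 barcodes (421 UMIs, up to 24). H2-DMa was found in 676 barcodes (981 UMIs) and H2-DMb1 in 370 (470 UMIs), with at most 10 and 5 UMIs in 1 barcode. The DM chains were therefore spread over many barcodes with 1 or a few UMIs, while the classical chains reached 34 to 76 UMIs in single barcodes. Ciita was at the limit of detection, with 2 UMIs in 2 barcodes of 2 mice. With so few UMIs no statement on Ciita between groups was possible at this depth.

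The genes rarely occurred together. Exactly 1 of the 7 genes was found in 1553 carrying barcodes, 2 in 193, 3 in 28, 4 in 15, 5 in 9 and 6 in 3. Both I-A chains together with Cd74 were found in 20 barcodes, of which 19 were high barcodes. Cd74 was found in 14.4% of barcodes with H2-Aa (29 of 201) and in 10.1% of those with H2-Ab1 (39 of 387).

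The 10 barcodes with most class II UMIs came from 6 mice of 3 groups. The highest, from the hippocampus of WT-vehicle 2, held 175 class II UMIs of 2670 in all (6.55%), namely 40 of H2-Aa, 31 of H2-Ab1, 76 of H2-Eb1, 24 of Cd74 and 4 of H2-DMa. It fell in a microglial cluster and held UMIs of 11 of 13 microglial markers, such as 36 of Ctss, together with Cd79b and Ighm, 2 genes of the B cell list. Ighm was also found in 39.1% and Cd79b in 1.56% of all microglia.

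The second, with 106 UMIs, and the fifth, with 58, were near twins from the cortex of Tg2576-PMX205 3 that carried 9 and 7 of the 10 astrocyte markers and were removed as likely doublets. The third, with 74 UMIs from the hippocampus of Tg2576-vehicle 3, held 33 UMIs of H2-Eb1 and 20 of H2-Aa in a total of 1039. The fourth, with 62, and the eighth, with 36, were near twins from the hippocampus of Tg2576-PMX205 2, and the fourth fell in the cluster of perivascular macrophages. Cells of Tg2576-PMX205 3 cortex also gave the sixth and ninth, with 41 and 31.

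Single UMIs of Ccr2, Trac or Ighm, from lists of other immune cells, were found in the near twins of Tg2576-PMX205 3, and more such UMIs in the seventh and the tenth. The seventh, with 38 UMIs from WT-vehicle 1 cortex, had no Cd74 UMI and held 8 microglial markers beside Cd209a, a dendritic cell gene, with 6 UMIs of Ccr2 and 3 of S100a4 from the monocyte list. The tenth, with 26 UMIs from Tg2576-PMX205 4 cortex, carried Cd79a, Cd79b and Ighm of the B cell list and fell in a cluster without a name. Cd79a was found in none of the 1736 microglia. Of the 10, 9 held both I-A chains and Cd74, and none held a UMI of Cst7 or Mrc1.

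**Figure D1:**
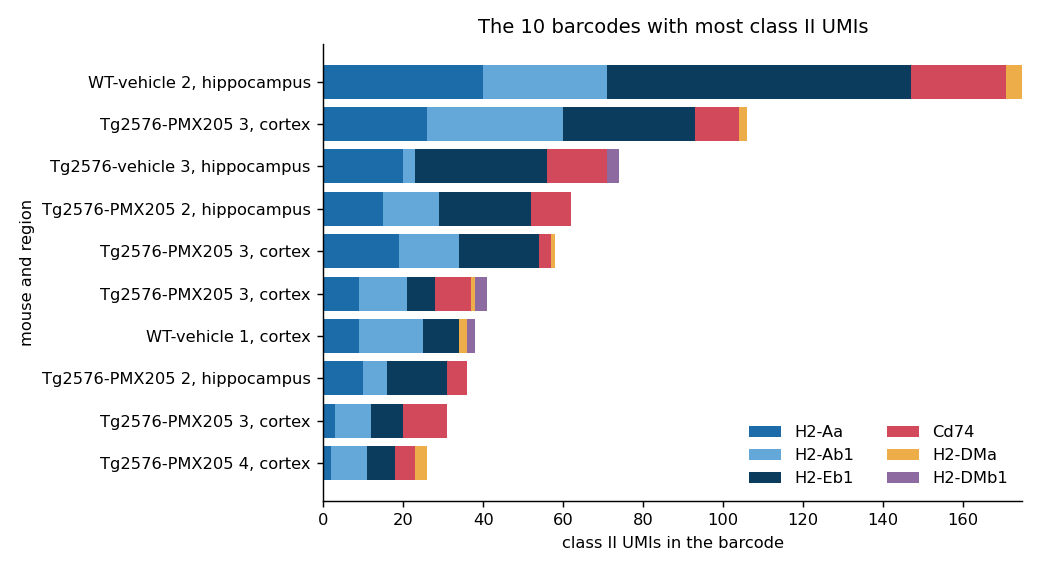
Class II UMIs (x axis, counts) in the 10 barcodes with most of them, 1 bar per barcode named by mouse and region (y axis) and split by gene. H2-Aa, H2-Ab1 and H2-Eb1 make up most of each bar, from 175 UMIs in the highest barcode to 26 in the tenth.

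By cell class, class II levels were highest in the cluster of perivascular macrophages, where 2 barcodes held most UMIs, lower in microglia and low in astrocytes and endothelial cells. A member was found in 12 of 27 perivascular macrophages (44.4%, 95% Wilson interval 27.6 to 62.7%) and in 508 of 1736 microglia (29.3%, 27.2 to 31.4%). Astrocytes, which are known for little class II expression at rest and here give the background level, carried a member in 105 of 1425 cells (7.37%, 6.12 to 8.84%) at a median of 1019 UMIs, close to the 1026.5 of microglia. Shares in all other classes lay between 5.41% (endothelial cells) and 17.9% (cells of unnamed clusters, at a median of 675 UMIs). These intervals cover counting error only.

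The summed level of the 7 genes, as UMIs per 1000000 (CPM) with exact Poisson intervals, was 3126 CPM (2578 to 3755) in perivascular macrophages, 606.2 CPM (574.5 to 639.2) in microglia and 75.7 CPM (63.3 to 89.8) in astrocytes. The macrophage value rests on 114 UMIs, of which 62 came from the single barcode of Tg2576-PMX205 2 described above and 21 from 1 of WT-vehicle 2. In the 25 cells that met a gate on macrophage genes (Mrc1 and 1 more, given below) the summed level was 673.6 CPM (443.9 to 980.03), an interval that includes the level of microglia. Of the DM chains, H2-DMa was found in 13.9% of microglia against 2.46% of astrocytes, and H2-DMb1 in 9.04% against 0.912%. H2-DMb1 was at 0 in the 27 macrophages, with an upper 95% Poisson limit of 101.1 CPM.

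Cd74 was found in 5.99% of microglia and 1.05% of astrocytes, and H2-Ab1 in 6.05% and 1.47%. H2-Aa and H2-Eb1 were low in both, in 2.13% and 2.30% of microglia and 0.842% and 0.912% of astrocytes. In 259 pericytes and mural cells H2-Eb1 was found in 3.86% and Cd74 in 0.386%. The levels in these vascular cells rest on 1 to 14 UMIs for each of 6 genes.

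**Figure D2:**
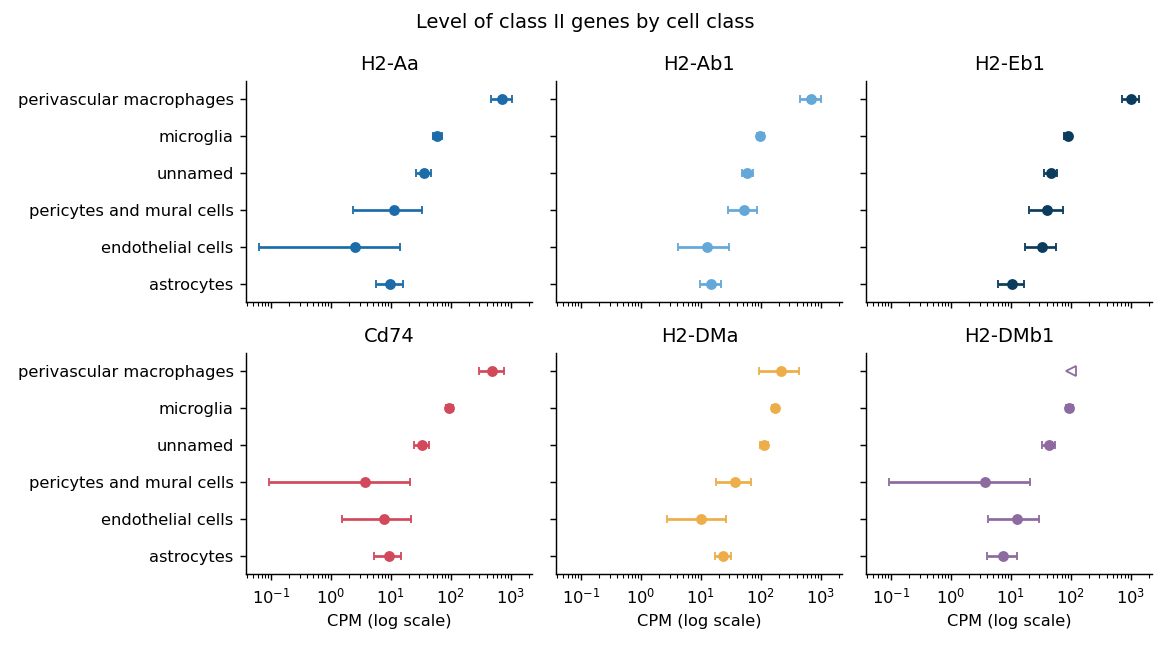
Level of 6 class II genes (x axis, CPM on a log scale) in 6 cell classes (y axis), with exact 95% Poisson intervals and an open triangle at the upper limit where a gene had 0 UMIs. Each gene was higher in microglia than in astrocytes, and H2-Aa, H2-Ab1, H2-Eb1 and Cd74 were highest in the 27 perivascular macrophages.

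Carrying barcodes were found in every group and in all 32 libraries, with 8 to 786 class II UMIs per library (median 59). They made up 656 of 4308 barcodes (15.2%) in WT-vehicle, 100 of 1050 (9.52%) in WT-PMX205, 450 of 4344 (10.4%) in Tg2576-vehicle and 595 of 4215 (14.1%) in Tg2576-PMX205. Of the 79 high barcodes 33 came from WT-vehicle, 5 from WT-PMX205, 12 from Tg2576-vehicle and 29 from Tg2576-PMX205, from 13 mice in all. By region, the carrying share was 16.3% in cortex and 11.7% in hippocampus of WT-vehicle, 10.4% and 7.14% of WT-PMX205, 10.2% and 10.6% of Tg2576-vehicle, and 14.6% and 12.2% of Tg2576-PMX205. These shares pool cells of several mice and of differing depth and were not tested.

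Within groups the mice differed widely. Summed class II levels over all barcodes were 454.5, 786.1, 400.03, 184.8 and 269.4 CPM in the 5 WT-vehicle mice and 360.2, 173.1 and 128.6 CPM in the 3 WT-PMX205 mice. They were 322.4, 132.4, 252.2 and 199.7 CPM in Tg2576-vehicle and 193.7, 259.8, 726.1 and 312.8 CPM in Tg2576-PMX205. All 4 groups overlapped, and the 2 highest mice, WT-vehicle 2 and Tg2576-PMX205 3, were also those with the 2 highest barcodes. Without its highest barcode WT-vehicle 2 was at 310.1 CPM, whereas Tg2576-PMX205 3 was still at 636.0 CPM.

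The first comparison asked whether class II expression differed between Tg2576-vehicle and WT-vehicle mice. In microglia, H2-Eb1 was at 62.3, 771.8, 24.4 and 63.4 CPM in the 4 WT-vehicle mice with at least 20 microglia and at 14.7, 16.9 and 144.3 CPM in the 3 Tg2576-vehicle mice. H2-Ab1 was at 151.9, 416.4, 36.6 and 95.1 CPM against 66.3, 101.2 and 39.4 CPM. Cd74 was at 54.5, 284.3, 12.2 and 118.9 CPM against 40.5, 16.9 and 118.1 CPM. The groups overlapped for each of these genes, and WT-vehicle 2 stood above the others in all of them.

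In WT-vehicle 2, 175 of the 210 class II UMIs of its microglia (83.3%) came from the highest barcode alone. H2-DMa, which that barcode hardly held, was at 373.9, 111.7, 256.2 and 103.04 CPM in WT-vehicle against 84.7, 168.7 and 65.6 CPM in Tg2576-vehicle, again with overlap. H2-DMb1 was at 124.6, 142.2, 85.4 and 63.4 CPM against 81.05, 67.5 and 91.9 CPM, so the group ranges also overlapped for the second DM chain.

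In edgeR's quasi-likelihood test on sums per mouse, no member passed an adjusted p of 0.05 in this comparison (0 of 6 tested, where 0.174% of 4029 genes passed), 2 of 6 had an unadjusted p below 0.05, and DESeq2 also called 0. All 6 log2 fold changes were negative, with a median of -1.16 against -0.01 over all genes. The lowest adjusted p was that of H2-DMa (-1.20, SE 0.50, edgeR adjusted p = 0.768), and H2-Ab1 followed (-1.44, SE 0.62, adjusted p = 0.82). Cst7, the cystatin used as the marker of plaque-associated microglia, was higher in Tg2576-vehicle in the same fit (5.30, SE 0.50, adjusted p = 2.64e-08). Without WT-vehicle 2 the log2 fold changes of H2-Eb1, H2-Aa and Cd74 in microglia turned positive (0.32, 0.35 and 0.08), that of H2-Ab1 was -0.68, and the median of the members was -0.04 with 3 of 6 above 0. With microglia that held at least 2 markers of another immune cell type left out, among them the highest barcode, H2-Eb1 was at 1.37, H2-Aa at 1.32, Cd74 at 0.28, H2-Ab1 at -0.32 and H2-DMa at -1.07, with 0 of 6 called and 1 at an unadjusted p below 0.05 in edgeR.

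Over all kept cells, of whatever type, the result was similar, with 0 of 6 members called (0.0746% of 8043 genes passed), 2 with an unadjusted p below 0.05 and 0 called by DESeq2. The 815 carrying barcodes that were not kept, with 1457 class II UMIs and 24 of the high barcodes, did not enter these sums. H2-Eb1 was at 30.5, 397.8, 38.3, 23.9 and 86.3 CPM in WT-vehicle against 17.0, 6.79, 64.7 and 25.2 CPM in Tg2576-vehicle (log2 fold change -1.76, SE 0.73, edgeR adjusted p = 0.9997). H2-Ab1 was at 75.04, 198.9, 44.7, 64.4 and 56.3 CPM against 35.7, 47.5, 19.8 and 21.03 CPM (-1.51, SE 0.53, edgeR adjusted p = 0.9997). For H2-Ab1 a single Tg2576-vehicle mouse reached into the WT-vehicle range. Without WT-vehicle 2, H2-Eb1 was at -0.42 and H2-Ab1 at -1.01. Without a filter on low counts H2-Eb1 passed (-1.73, adjusted p = 0.0289, where 0.0945% of 22214 genes passed). Summed dendritic cell markers (7 of 8 seen, Xcr1 at 0) were at 82.9 to 109.2 CPM in WT-vehicle and 54.3 to 81.5 CPM in Tg2576-vehicle, without overlap, and perivascular macrophage markers (8 of 8 seen) at 86.3 to 271.1 CPM and 27.1 to 159.7 CPM. In the other direction, B cell markers (4 of 6 seen, Ms4a1 and Igkc at 0) were at 193.3 to 435.2 CPM in WT-vehicle and 431.4 to 508.9 CPM in Tg2576-vehicle. The part of these markers in the result over all cells was not tested. In sums over all cells, fewer cells of a type and less RNA per cell cannot be told apart.

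The second comparison asked whether PMX205 changed class II expression in Tg2576 mice. In microglia Cd74 was at 49.4, 74.4 and 212.0 CPM in the 3 Tg2576-PMX205 mice with enough microglia, against 40.5, 16.9 and 118.1 CPM in Tg2576-vehicle. H2-Ab1 was at 16.5, 39.4 and 185.5 CPM against 66.3, 101.2 and 39.4 CPM. Tg2576-PMX205 3 was the highest mouse for both genes, and the groups overlapped.

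No member was called in microglia (0 of 6, where 0% of 4029 genes passed), 0 of 6 had an unadjusted p below 0.05 and DESeq2 called 0. The median log2 fold change was 0.37, with 4 of 6 above 0, against 0.00 over all genes. H2-DMa was at 222.3, 113.8 and 223.7 CPM in Tg2576-PMX205 against 84.7, 168.7 and 65.6 CPM in Tg2576-vehicle (0.94, SE 0.51, edgeR adjusted p = 0.998). Cd74 had a log2 fold change of 0.78 (SE 0.62, edgeR adjusted p = 0.998), which was -0.04 without Tg2576-PMX205 3. Without that mouse H2-Ab1 moved from 0.46 to -0.96 and H2-Eb1 from -0.09 to -2.18, the median of the members was -0.50 and 2 of 6 were above 0. Of the 3 Tg2576-PMX205 mice 2 were among those with many near-twin barcodes, and none of the 3 Tg2576-vehicle mice in this fit was.

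Over all kept cells 0 of 6 members were called (0% of 8043 genes passed), 1 had an unadjusted p below 0.05 and DESeq2 called 0. H2-Ab1 was at 15.9, 43.9, 107.3 and 140.3 CPM in Tg2576-PMX205 against 35.7, 47.5, 19.8 and 21.03 CPM in Tg2576-vehicle (1.19, SE 0.56, edgeR adjusted p = 0.9995). Cd74 was at 19.03, 56.3, 103.7 and 58.5 CPM against 30.6, 6.79, 48.5 and 16.8 CPM (1.04, SE 0.55, edgeR adjusted p = 0.9995). Without Tg2576-PMX205 3 the log2 fold change was 0.55 for Cd74 and 0.77 for H2-Ab1. For Cd74 the upper 3 Tg2576-PMX205 mice were above all Tg2576-vehicle mice, and the fourth was within their range. Summed T and NK cell markers (7 of 7 seen) were at 9.52 to 49.4 CPM in Tg2576-PMX205 and at 0 to 8.49 CPM in Tg2576-vehicle, without overlap, and dendritic cell markers at 47.6 to 175.4 CPM and 54.3 to 81.5 CPM. The 9.52 CPM of T and NK cell markers stands for 3 UMIs in Tg2576-PMX205 1, so this gap rests on few UMIs. B cell markers were lower without overlap, at 327.4 to 420.9 CPM in Tg2576-PMX205 and 431.4 to 508.9 CPM in Tg2576-vehicle. The part of these markers in the result over all cells was not tested.

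The third comparison asked the same of WT mice. In microglia, where 2 WT-PMX205 mice had enough cells, H2-Eb1 was at 38.1 and 0 CPM and H2-Ab1 at 38.1 and 43.8 CPM, both within or below the WT-vehicle range. H2-DMa was at 552.8 and 73.0 CPM, above and below the WT-vehicle range. No member was called (0 of 6, where 0% of 4029 genes passed), 2 of 6 had an unadjusted p below 0.05 and DESeq2 called 0. H2-Eb1 had a log2 fold change of -3.67 (SE 1.55, edgeR adjusted p = 0.455), which was -1.60 without WT-vehicle 2 and -0.60 with microglia that held markers of another immune cell type left out (0 of 6 called and 0 at an unadjusted p below 0.05 in edgeR). It passed where no filter on low counts was used (-3.76, adjusted p = 0.0386, where 0.0232% of 17218 genes passed).

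Over all kept cells 0 of 6 members were called in WT-PMX205 against WT-vehicle (0% of 8043 genes passed), 1 had an unadjusted p below 0.05 and DESeq2 called 0. H2-Eb1 was at 12.0, 0 and 16.7 CPM in WT-PMX205, below all 5 WT-vehicle mice (-3.52, SE 1.17, edgeR adjusted p = 0.99965), and passed where no filter on low counts was used (-3.57, adjusted p = 0.00164, where 0.018% of 22214 genes passed). Without WT-vehicle 2 the log2 fold change was -2.15. H2-DMa was at 239.05, 62.8 and 8.36 CPM, again over a wide range. Summed markers of perivascular macrophages (8 of 8 seen) were at 27.9 to 89.6 CPM in WT-PMX205 and 86.3 to 271.1 CPM in WT-vehicle, and those of dendritic cells at 34.9 to 75.2 CPM and 82.9 to 109.2 CPM. Monocyte markers (5 of 6 seen, Ear2 at 0) were higher without overlap, at 27.9 to 50.1 CPM in WT-PMX205 and 0 to 26.97 CPM in WT-vehicle, and B cell markers were at 268.9 to 656.4 CPM and 193.3 to 435.2 CPM. The 27.9 CPM of monocyte markers stands for 4 UMIs in WT-PMX205 2. The part of these markers in the result over all cells was not tested. The WT-vehicle mice also served the first comparison, and the Tg2576-vehicle mice both the first and the second.

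**Figure D3:**
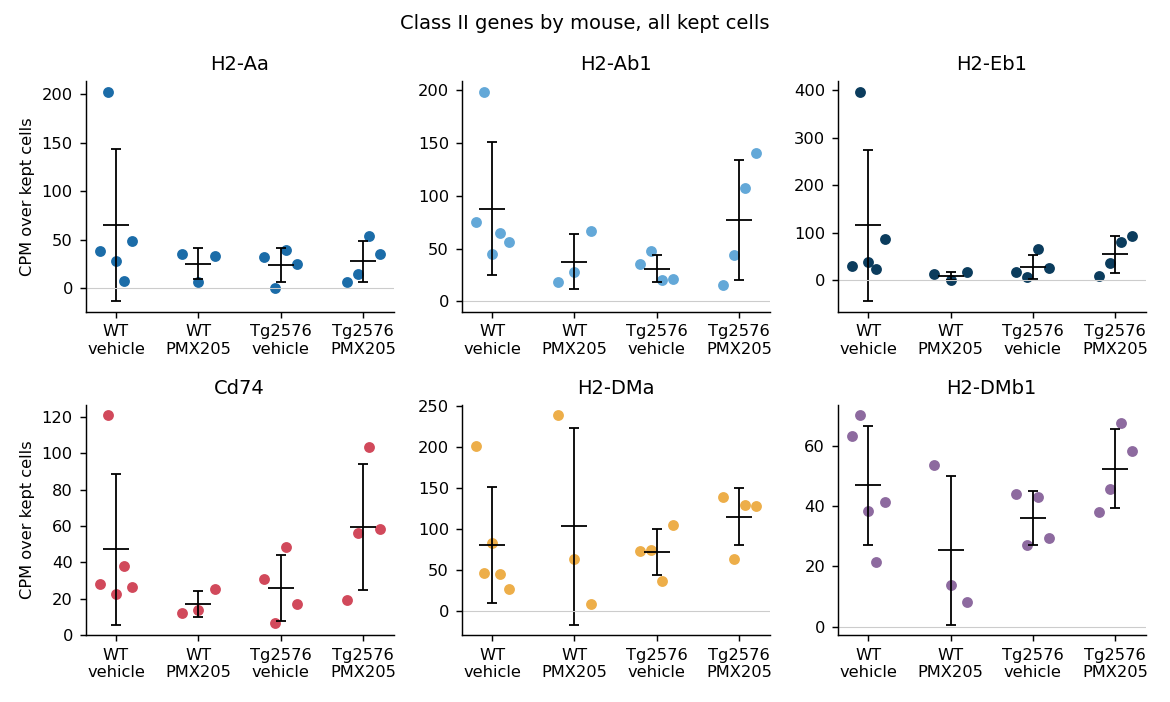
Level of 6 class II genes (y axis, CPM over all kept cells) in each of the 16 mice (points) by group (x axis), with the mean and SD. A single mouse, WT-vehicle 2, reached 397.8 CPM of H2-Eb1 and 120.9 CPM of Cd74, and otherwise the groups overlapped for most genes.

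The effects of PMX205 in Tg2576 and in WT mice were also set against each other. The difference between the effects was positive for all 6 members in microglia and over all cells, and none of the 12 tests passed in edgeR (0% of 4029 and 0% of 8043 genes passed), with 5 at an unadjusted p below 0.05. The largest was H2-Eb1 over all cells (4.15, SE 1.43, edgeR unadjusted p = 0.00761, adjusted p = 0.9996). DESeq2 was not run on this difference, and it was not refitted without single mice or cells. Where microglia with markers of another immune cell type were left out, H2-Aa had log2 fold changes of -0.60 in Tg2576 and 0.16 in WT, and H2-Eb1 of -0.09 and -0.60, so that the effects of H2-Aa stood in the other order and those of H2-Eb1 lay closer together. The other members remained higher in Tg2576, with Cd74 at 0.73 against -1.18 and H2-Ab1 at 0.44 against -0.97. H2-DMb1 was at 0.26 against -0.63 and H2-DMa at 0.97 against 0.57.

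To take depth out of the comparison, each microglial cell was thinned to 500 UMIs and the expected share of cells with a Cd74 UMI was computed. The share was 1.74, 1.81, 0.793 and 4.86% in WT-vehicle, 2.28 and 1.64% in WT-PMX205, 1.44, 0.734 and 2.73% in Tg2576-vehicle, and 3.22, 2.79 and 6.61% in Tg2576-PMX205. All 3 Tg2576-PMX205 mice lay above all 3 Tg2576-vehicle mice (mean 4.21% ± 2.09 against 1.63% ± 1.01, SD). The two-sided exact permutation test gave p = 0.1, the smallest that 3 against 3 mice allow (adjusted over the 3 group comparisons, 0.3), so this design cannot reach 0.05. The difference of 2.58 points fell to 1.38 without Tg2576-PMX205 3, to 1.65 with doublets kept (exact permutation p = 0.343), to 1.47 with microglia chosen by markers (exact permutation p = 0.171), to 0.982 in hippocampus alone and to 0.862 with cells of at least 1000 UMIs (exact permutation p = 0.7).

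Tg2576-vehicle and WT-vehicle (2.30% ± 1.77, n = 4) differed by -0.668 points (exact permutation p = 0.629, adjusted 0.943, smallest possible 0.0571). This difference turned positive without thinning (0.307 points), with cells of at least 1000 UMIs (1.72) and without WT-vehicle 4 (0.185). WT-PMX205 (1.96% ± 0.451, n = 2) and WT-vehicle differed by -0.341 points (exact permutation p = 1, smallest possible 0.133), which turned positive without WT-vehicle 4 (0.512) and in cortex alone (1.33). Both differences were smaller than the spread between mice.

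Between regions, the thinned Cd74 share was 4.02% ± 2.67 in hippocampus and 2.28% ± 2.26 in cortex over the 8 mice with at least 20 microglia in both. The hippocampus was higher in 5 of 8 mice, with pairs as far apart as 8.82 against 2.84% in WT-vehicle 4 and, the other way, 0 against 2.42% in WT-vehicle 1. The mean difference of 1.74 points gave p = 0.211 in a two-sided exact sign-flip permutation test (smallest possible 0.00781). It was 1.13 points without WT-vehicle 4, 1.15 without Tg2576-PMX205 1, 0.438 with microglia chosen by markers (higher in 7 of 15 mice) and 0.349 with cells of at least 1000 UMIs. In edgeR with the mouse as a block H2-DMa was the 1 member that passed the filter on low counts, with a log2 fold change of 0.27 (SE 0.29, edgeR adjusted p = 0.904) in microglia and 0.14 (SE 0.26, edgeR adjusted p = 0.872) over all cells. Thus 0 of 1 were called in either (0.0567% of 1763 and 1.45% of 3174 genes passed), with 0 at an unadjusted p below 0.05. DESeq2 did not call it in microglia and gave it no adjusted p over all cells, and its unadjusted p was not below 0.05 in either.

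The overlap with Cst7 depended on the gene. Over all barcodes 9.38% held a Cst7 UMI, against 27.4% of those with Cd74 (71 of 259), 13.04% of those with a classical chain (96 of 736) and 14.1% of those with a DM chain (140 of 992). Seen from the other side, 263 of 1305 Cst7-positive barcodes (20.2%) carried a member. Of the high barcodes 10 of 79 (12.7%) held Cst7. Among Tg2576 microglia, 46 of the 83 cells with Cd74 (55.4%) were Cst7-positive, where 26.1% of all Tg2576 microglia were.

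Within Tg2576 mice, microglia with and without a Cst7 UMI were compared over the 6 mice with at least 10 of each. In the Tg2576-vehicle mice 1, 2 and 3 the thinned Cd74 share was 1.87, 3.97 and 6.31% of Cst7-positive cells and 1.24, 0 and 1.76% of Cst7-negative cells. In the Tg2576-PMX205 mice 1, 2 and 3 it was 8.23, 7.91 and 8.18% against 0.769, 0.239 and 6.33%. Cst7-positive cells were higher in 6 of 6 mice.

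The mean share was 6.08% ± 2.63 in Cst7-positive and 1.72% ± 2.35 in Cst7-negative cells, a difference of 4.36 points (two-sided exact sign-flip permutation p = 0.03125, the smallest that 6 mice can give). Without thinning the shares were 13.97% and 3.12%. The mean difference was 4.76 points in the 2 mice with many near-twin barcodes and 4.15 points in the other 4. Leaving out any 1 mouse left p at 0.0625, the smallest that 5 mice allow, with differences of 3.69 to 5.10 points. With microglia chosen cell by cell from their markers, the difference was 2.50 points, higher in 7 of 8 mice (exact permutation p = 0.0391), and with at least 2 Cst7 UMIs in place of 1 it was 6.65 points in 5 mice (exact permutation p = 0.0625). Cst7-positive cells were deeper in 5 of 6 mice, with medians of 1142 and 978 UMIs over all Tg2576 microglia. Thinning was applied to Cd74, whereas the Cst7 state was set on the full counts, and a split set after thinning was not tested.

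As a background, the same split was made in other classes of Tg2576 cells. Of 820 Tg2576 astrocytes 59 (7.20%) held a Cst7 UMI, and none of these held Cd74, which allows up to 3 cells, against 7 of the astrocytes without Cst7 (0.92%). Their median depths were 870 and 993 UMIs, and with 59 cells the count of 0 gives little information. In the 856 cells of unnamed clusters Cd74 was found in 9 of 192 Cst7-positive cells (4.69%, thinned 2.79%) and in 12 of the Cst7-negative cells (1.81%, thinned 1.26%), the same direction as in microglia.

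The other members varied in how they went with Cst7. H2-DMb1 had a mean thinned share of 7.41% in Cst7-positive against 2.78% in Cst7-negative microglia and was higher in 5 of 6 mice. H2-Ab1, at 4.21% against 2.59%, was also higher in 5 of 6, and H2-DMa, at 7.49% against 5.37%, in 4 of 6. H2-Aa (0.886% against 1.08%) and H2-Eb1 (1.02% against 1.26%) were higher in 2 and 3 of 6 mice. These 5 genes are given as a description without a test of the shares.

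In edgeR, with the mouse as a block and Cst7 left out, 0 of the 2 members that passed the filter on low counts were called (6.03% of 1591 genes passed), 0 had an unadjusted p below 0.05, and DESeq2 gave neither an adjusted p (0 with an unadjusted p below 0.05). H2-DMb1 had a log2 fold change of 0.83 (SE 0.44, edgeR adjusted p = 0.301) and H2-DMa of 0.20 (SE 0.37, edgeR adjusted p = 0.835). Cd74 did not pass that filter. Without it Cd74 had a log2 fold change of 1.39 (SE 0.49, edgeR adjusted p = 0.363), and it was called where cells with at least 2 Cst7 UMIs were compared with cells with 0 (1.89, SE 0.52, edgeR adjusted p = 0.0188, over 5 mice, where 6.92% of 2082 genes passed).

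**Figure D4:**
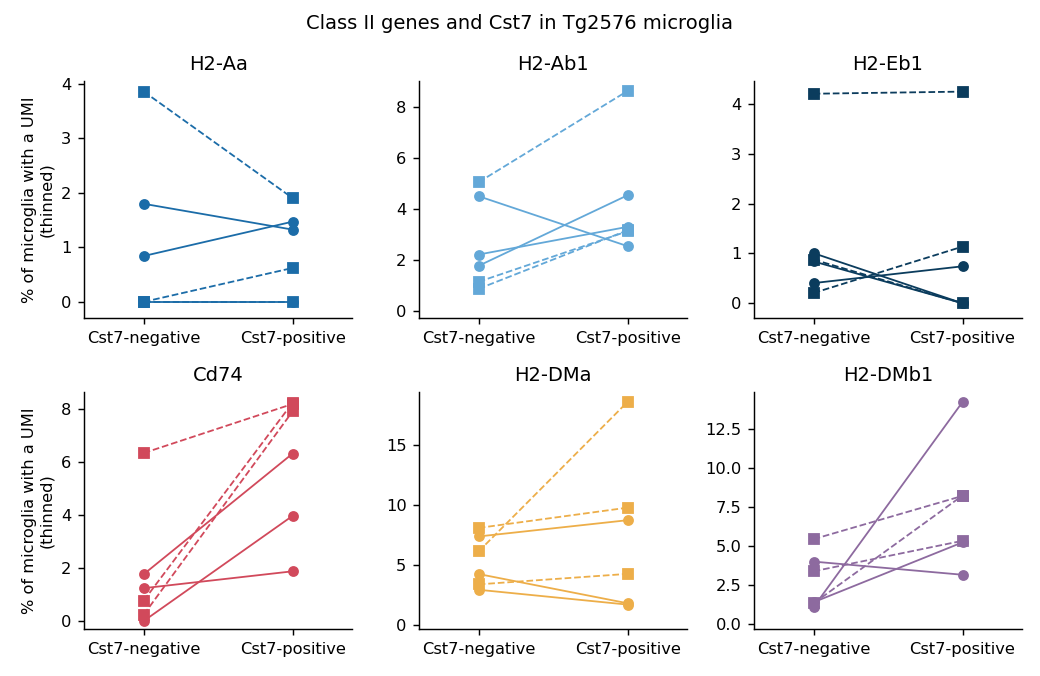
Share of Tg2576 microglia with a UMI of each of 6 class II genes after thinning to 500 UMIs (y axis, %) in Cst7-negative and Cst7-positive cells (x axis). Each line is 1 mouse, with circles and solid lines for Tg2576-vehicle and squares and dashed lines for Tg2576-PMX205. Cd74 was higher in Cst7-positive cells in 6 of 6 mice.

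The microglial cluster led by Itgax, Cst7 and Spp1 showed the same association in another way. Cd74 was found in 49 of its 264 cells (18.6%) against 3.91%, 4.72% and 1.71% of cells in the other 3 microglial clusters. Its median depth of 1240.5 UMIs was the highest of the 4 clusters, and since clusters were formed from the same cells no test was made.

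The wider class II route was read from 34 further genes of the pathway (regulators, proteases, partners and costimulators). In the group comparisons edgeR called 0 of the 17 that passed the filter on low counts in microglia, with 1, 1 and 4 at an unadjusted p below 0.05 for Tg2576-vehicle against WT-vehicle, PMX205 in Tg2576 and PMX205 in WT, and 0 of 22 over all cells, with 1, 1 and 2. DESeq2 called 1, the protease gene Ctsb, in Tg2576-vehicle against WT-vehicle, in microglia (0.74, SE 0.19, DESeq2 adjusted p = 0.0450, where 0.199% of 4029 genes passed) and over all cells (0.75, SE 0.18, DESeq2 adjusted p = 0.0346, where 0.137% of 8042 genes passed), and 0 in the other comparisons of groups. Between regions edgeR called 0 of 12 in microglia and 0 of 14 over all cells, with 2 and 3 at an unadjusted p below 0.05, and DESeq2 called Lgmn, another lysosomal protease, over all cells alone (0.40, SE 0.11, DESeq2 adjusted p = 0.00761, higher in hippocampus, where 3.94% of 3174 genes fitted passed and 8 of the 14 had an adjusted p). Between Cst7-positive and Cst7-negative microglia 2 of 12 were called by edgeR and by DESeq2, both higher in Cst7-positive cells, where 6.03% of 1591 genes passed in edgeR and 7.29% of those fitted in DESeq2, which gave 7 of the 12 an adjusted p. These were the lysosomal proteases Ctsb (log2 fold change 1.27, SE 0.14, edgeR adjusted p = 7.86e-09) and Ctsl (0.91, SE 0.17, edgeR adjusted p = 0.000195), which digest endocytosed protein.

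The overlap with Mrc1, the mannose receptor of perivascular macrophages, was small in number. Of 171 barcodes with Mrc1, 39 (22.8%) carried a member, which is 2.17% of the 1801 carrying barcodes, and 4 of 79 high barcodes held Mrc1. A stricter gate, Mrc1 with at least 1 of Cd163, Pf4, Cd209f and Cbr2, was met by 25 kept cells, of which 10 carried a member. In all, 65 of the 79 high barcodes held neither Mrc1 nor Cst7. A UMI of either gene can be missed at this depth, so these cells are not shown to lack them. Most barcodes of any kind held neither gene (171 of all 13917 held Mrc1), so this count does not set the high barcodes apart.

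Cd74 in the gated macrophages was compared with microglia of the same mouse in 6 mice with at least 2 gated cells. Cd74 was at 167.8, 239.9 and 298.8 CPM in the gated cells of WT-vehicle 1, WT-vehicle 3 and Tg2576-PMX205 2, and at 0 in those of WT-vehicle 4, Tg2576-vehicle 1 and Tg2576-vehicle 3. The macrophages were higher in 3 of 6 mice. On the scale of log2 (CPM + 1) they were at 3.92 ± 4.31 (SD) and microglia at 5.82 ± 1.19, a difference of -1.90 (two-sided exact sign-flip permutation p = 0.406, smallest possible 0.03125). This difference ranged from -3.12 to -0.897 when single mice were left out. It was -3.41 in mice with at least 1 gated cell. With 2 to 7 gated cells per mouse, 0 UMIs do not show that Cd74 was absent, and the sign of this mean rests on the 3 mice at 0. Pooled over cells the direction was the opposite, with Cd74 at 174.6 CPM (70.2 to 359.8) and in 4 of the 25 gated cells against 94.5 CPM (82.3 to 108.1) and 104 of 1733 microglia.

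Over the 5625 kept cells the genes most like Cd74 in pattern were the classical chains, with Pearson correlations of 0.24 for H2-Eb1, 0.22 for H2-Aa and 0.19 for H2-Ab1 (log of 1 + UMIs per 10000). That order rested on the high cells. Without these, H2-Eb1 was at -0.006, H2-Aa at 0.04 and H2-Ab1 at 0.009. The 5 nearest genes outside the family were H2-Q7 (0.14), Lyz2 (0.13), Cst7 (0.12), Cxcl16 (0.12) and Rplp0 (0.12). With the high cells left out, Cst7 was at 0.14, Rplp0, Lyz2 and Cxcl16 at 0.10 and H2-Q7 at 0.06. The cells share libraries and differ in depth, and in such sparse counts these weak values are descriptions.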

How the data were processed

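Single-cell 3′ RNA libraries were made with the SureCell kit. The authors aligned and counted reads with kb count (kallisto bustools) on mm10 and GENCODE M21, after bcl2fastq 2.18.0.12 per the labels, and deposited UMI counts without normalization. The members and lists were chosen with earlier results of these data known.

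Cells passed at least 500 UMIs, 300 genes and at most 5% mitochondrial UMIs, and the 6% of each library with the highest Scrublet score were removed. SCTransform (Seurat 5.3.0, sctransform 0.4.2, R 4.3.3), 30 components, 20 neighbors and Leiden clustering at 0.8 (scanpy 1.11.5) used no class II gene. Clusters were named from at least 3 raised markers.

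Sums per mouse (at least 20 microglia, macrophage-gated cells left out) were tested across all genes with edgeR 4.0.16 (filterByExpr, TMM, quasi-likelihood, Benjamini-Hochberg), regions and Cst7 states with the mouse as a block because both sums come from 1 animal. DESeq2 1.42.0 was an alternative. Single values had exact permutation tests. The code was tested on simulated data.

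Named genes were the members, called pathway genes, the 5 genes most correlated with Cd74, the 10 with the highest ratio in cells with at least 5 class II UMIs over cells with none, Cst7, Mrc1 and the 10 highest barcodes. Genes named from marker lists in those barcodes were chosen after their values were seen. Some named items are not reported here.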

Additional observations from a re-analysis of the deposited data

Results flagged for a closer look

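Among 29 checks for a mouse far from the rest of its group, each of 1 value in 1 group of 4 or 5 mice, 8 values stood apart. Chance flags about 5% of independent checks, but these reuse the same mice, related genes and the sum of those genes. Over all kept cells WT-vehicle 2 was far above the other WT-vehicle mice in the summed level of the members (1037 CPM against 200.4 to 437.3 CPM), in H2-Aa (202.8 CPM against 7.16 to 48.8 CPM), in H2-Ab1 (198.9 CPM against 44.7 to 75.04 CPM), in H2-Eb1 (397.8 CPM against 23.9 to 86.3 CPM) and in Cd74 (120.9 CPM against 22.3 to 38.2 CPM). In microglia the same mouse stood apart in H2-Aa (406.2 CPM against 12.2 to 77.9 CPM) and H2-Eb1 (771.8 CPM against 24.4 to 63.4 CPM). These 7 values share 1 mouse, in which 175 UMIs came from a single barcode. Without its highest barcode the summed level of WT-vehicle 2 over all kept cells was 354.9 CPM. In the other direction, H2-DMa over all kept cells was at 63.96 CPM in Tg2576-PMX205 2, below the other 3 Tg2576-PMX205 mice (128.6 to 139.6 CPM).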

How the results depend on the processing

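The count of called members stayed at 0 in 181 of 185 alternatives, in 2 of which (DESeq2, regions over all cells and Cst7) the members had no adjusted p. It was 1 without filterByExpr in 3 comparisons, H2-Eb1 each time (WT-PMX205 against WT-vehicle in microglia and over all cells, and Tg2576-vehicle against WT-vehicle over all cells, where 0.0232%, 0.018% and 0.0945% of all genes passed), and 1 for Cst7-positive against Cst7-negative microglia with at least 2 Cst7 UMIs, Cd74 (adjusted p = 0.0188, where 6.92% of all genes passed). Of 774 alternative fold changes of single members 43 had the other sign, and none of these was called. Regions and Cst7 states of 1 animal were paired by mouse, and without the replicate block 0 members were called in these 3 fits. The thinned Cd74 share of Tg2576-vehicle less WT-vehicle turned positive without thinning (0.307 points), with at least 1000 UMIs (1.72) and, over leave-one-out values of -1.21 to 0.185, without WT-vehicle 4. WT-PMX205 less WT-vehicle turned positive in cortex alone (1.33) and, over leave-one-out values of -0.843 to 0.512, without WT-vehicle 4. The Cst7 difference missed 0.05 (exact permutation p = 0.0625, the smallest possible with 5 mice) with at least 1000 UMIs (4.77 points), with at least 2 Cst7 UMIs (6.65) and in each leave-one-out (3.69 to 5.10). Over all genes the number called moved from the reported 7 to between 1 and 22 (Tg2576-vehicle against WT-vehicle, microglia), from 6 to between 2 and 21 (all cells), from 1 to between 0 and 66 and from 46 to between 5 and 125 (regions, microglia and all cells), from 96 to between 53 and 144 (Cst7), and from 0 to at most 14 in the PMX205 comparisons. Leaving out barcode strings shared between libraries, chosen after seeing the data, gave 4.37 points. With few microglia per mouse and mostly single UMIs, differences of single members below the spread between mice were not detectable at this depth.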

Other observations

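The 10 genes with the highest ratio between cells with many and with no class II UMIs are given as a description. In the 55 kept cells with at least 5 class II UMIs, H2-Q7, a nonclassical class I gene, was at 298.6 CPM against 19.3 CPM in the 4639 kept cells with none (15.5-fold), H2-D1 at 1063 against 233.1 CPM (4.56-fold) and H2-K1 at 1879 against 441.4 CPM (4.26-fold). H2-D1 and H2-K1 encode classical class I heavy chains, and reads of these near-identical genes can be split between copies. Lyz2, the lysozyme of myeloid cells, was at 1449 against 362.8 CPM (3.99-fold), Ptpn6, a phosphatase of blood cells, at 483.01 against 134.1 CPM (3.60-fold), and Coro1a, an actin regulator of leukocytes, at 210.8 against 59.9 CPM (3.52-fold). Among the 10 genes with the highest ratio were also Traf5 (4.31-fold), St8sia6 (4.18-fold) and Hk2 (3.39-fold). The high cells were deeper (median of 1483 against 878 UMIs), 43 of the 55 were microglia whereas the cells with none were of all types, and the comparison pools cells of 12 mice, so these are ratios without a test.

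Marker lists of other immune cells were summed over all kept cells of each mouse. Summed T and NK cell markers (7 of 7 seen) were at 0 to 8.49 CPM in the mice of the other 3 groups and at 9.52 to 49.4 CPM in the 4 Tg2576-PMX205 mice, and neutrophil markers (5 of 5 seen) at most 42.5 CPM. The lowest T and NK value in Tg2576-PMX205 stands for 3 UMIs. Dendritic cell markers (7 of 8 seen, Xcr1 at 0) ranged from 34.9 to 175.4 CPM and monocyte markers (5 of 6 seen, Ear2 at 0) from 0 to 82.5 CPM, with the highest mouse of both lists in Tg2576-PMX205. B cell markers (4 of 6 seen, Ms4a1 and Igkc at 0) ranged from 193.3 to 656.4 CPM, and Ighm, found in 39.1% of microglia, is part of that list. Perivascular macrophage markers (8 of 8 seen) ranged from 27.1 to 271.1 CPM. At least 2 markers of another immune type were held by 1.83% of carrying kept cells and 0.517% of the others.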
